A study of Mus musculus with 4 samples.

Results

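Genes of the brain endothelium and the blood-brain barrier were examined in the hippocampus of control mice and of mice exposed to repeated social defeat (R-SDS). The 34 genes were given as a list of names, and a gene was represented by the array row with the highest mean among the rows annotated with exactly 1 gene symbol. By this rule 32 of the 34 were measured, among 19938 genes on 21789 tested rows, and each of the 32 had a single such row. Ly6a had no such row, and the rows of Ly6c1 were also annotated to its neighbour Ly6c2, so both genes were left out. The samples were hippocampi of male C57BL/6JJmsSlc mice, 11 to 12 weeks of age per the labels, each array described as the hippocampus of a mouse. After a week of single housing, the 2 R-SDS mice were each placed with an aggressive male ICR mouse for 10 min a day over 10 days. The ICR mouse was changed at random every day, and at other times the R-SDS mouse stayed behind a divider beside it. In the study's account the arrayed R-SDS mice were susceptible, that is, they avoided an unfamiliar ICR mouse. The 2 control mice lived in pairs in divided cages, with a change of partner every day. The labels name no transgene and no drug. Values are log2 intensities after RMA, which corrects background, normalises the arrays and summarises the probes of a transcript, so that a difference of 1 is a doubling. Nothing in the labels says what a replicate number stands for. Differences are nevertheless given both between the group means and within number 1 (R-SDS 1 minus Control 1) and number 2 (R-SDS 2 minus Control 2), because arrays with the same number had like interquartile ranges.

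Endothelial cells line the vessels of the brain. They are sealed to each other by tight junctions, of which claudin-5 and occludin are membrane proteins and ZO-1 is the scaffold beneath. Because little passes between the cells, nutrients enter through transporters such as GLUT1, and ATP-driven pumps such as P-glycoprotein return many drugs and metabolites to the blood. The VEGF and angiopoietin receptors govern growth and stability of the vessels, and their sprouting and quiescence are set by transcription factors of the ETS, SOX and KLF families. Capillaries, arteries and veins of the brain express different members of these groups. Whole hippocampus holds mostly neurons and glia. In these samples a change in the number of endothelial cells and a change in RNA per endothelial cell therefore cannot be told apart.

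Among the 32 genes, the highest difference belonged to Slc38a5, which encodes a transporter of glutamine and other neutral amino acids and is known from brain veins and capillaries. Its level was 1.52-fold higher in R-SDS mice, and almost equally so within both numbers. Flt1, the VEGF receptor that binds the ligand with high affinity and signals weakly, was 1.32-fold higher, Emcn (endomucin, a surface glycoprotein of capillaries and veins) 1.30-fold and the tight junction gene Ocln 1.21-fold. The main VEGF receptor gene Kdr, the claudin gene Cldn5 and the pan-endothelial genes Esam, Egfl7 and Erg differed by less than the spread between mice. After Benjamini-Hochberg adjustment of the limma p-values over all rows, the count of genes under 0.05 was 0 of 32, beside 0% of the 21789 rows. At an unadjusted p under 0.05, limma counted 1 of the 32 (Slc38a5), beside 1.01% of all rows, and the methods' t-test 3, beside 2.02%. With 2 arrays per group, an exact permutation test of a single gene cannot give a two-sided p below 0.333.

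Windows of 250 bases before the annotated RefSeq start (build GRCm38.p6, GRCm38 coordinates) are shown for the 3 genes with the largest smaller-of-the-pair difference within the numbers, Slc38a5, Flt1 and Emcn, and for Kdr as the VEGF receptor that differed little. The window of Slc38a5 is chrX:8271131-8271380 on the plus strand, that of Flt1 chr5:147726012-147726261 on the minus strand, that of Emcn chr3:137340828-137341077 on the plus strand and that of Kdr chr5:75978456-75978705 on the minus strand. They are written 5′ to 3′ along the gene, and capitals mark matches on either strand to CNGGAA, an ETS-type motif (N is any base) of the factor family to which the listed gene Erg belongs.
Slc38a5: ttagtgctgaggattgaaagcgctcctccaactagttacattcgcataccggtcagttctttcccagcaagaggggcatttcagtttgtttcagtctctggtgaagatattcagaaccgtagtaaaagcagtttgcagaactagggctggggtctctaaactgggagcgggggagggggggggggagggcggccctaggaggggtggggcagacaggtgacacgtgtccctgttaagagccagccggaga
Flt1: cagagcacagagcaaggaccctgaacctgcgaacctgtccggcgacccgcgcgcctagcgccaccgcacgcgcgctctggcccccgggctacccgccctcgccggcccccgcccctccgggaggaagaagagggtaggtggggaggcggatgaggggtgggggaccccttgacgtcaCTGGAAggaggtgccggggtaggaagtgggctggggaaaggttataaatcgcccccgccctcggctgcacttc
Emcn: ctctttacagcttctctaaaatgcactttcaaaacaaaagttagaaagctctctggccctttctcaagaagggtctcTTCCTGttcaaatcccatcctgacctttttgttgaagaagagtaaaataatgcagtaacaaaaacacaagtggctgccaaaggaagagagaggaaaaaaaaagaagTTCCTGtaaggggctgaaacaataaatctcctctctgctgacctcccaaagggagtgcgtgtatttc
Kdr: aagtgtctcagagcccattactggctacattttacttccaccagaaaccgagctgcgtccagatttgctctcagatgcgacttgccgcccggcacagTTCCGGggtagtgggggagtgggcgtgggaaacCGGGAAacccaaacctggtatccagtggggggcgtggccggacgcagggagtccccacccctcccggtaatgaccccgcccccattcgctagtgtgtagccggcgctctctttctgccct
Emcn and Kdr each held 2 ETS-type matches, Flt1 held 1 and Slc38a5 held 0. Over all 32841 promoter windows of the table, 54.2% held at least 1, against 45.2% of the 31 windows of the 22 listed genes that the table covers. For a KLF-type motif, GGGNGNGG on either strand, the shares were 45.9% of all windows and 77.4% of the 31. These letters also fit the GC boxes of SP factors, and matches in a run of G overlap one another, as most of the 9 in the Slc38a5 window do; Flt1 held 3, Kdr 7 and Emcn 0. The shares for a SOX-type motif (ACAANG) were 36.3% of all windows and 32.3% of the 31, and for a FOX-type motif (TGTTTA) they were 12% and 9.68%. None of the 4 windows shown had a SOX-type or FOX-type match. A match is a description of the letters, and binding was not measured here.

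Slc38a5 measured 5.81 and 5.99 in the control mice, while R-SDS 1 had 6.44 and R-SDS 2 had 6.57. The groups did not overlap, and the gap between the higher control and the lower R-SDS mouse, 0.45, exceeded the distance between mice of either group. The log2 difference was 0.60 (SE 0.14; limma adjusted p = 1 over all rows), with 0.63 within number 1 and 0.58 within number 2, and it stayed between 0.51 and 0.69 when any 1 array was left out. Slc38a5 was the only one of the 32 past the study's own thresholds (log2 difference over 0.5, unadjusted p under 0.05), which 0.147% of all rows passed in that direction.

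Flt1 measured 8.07 and 7.74 in the control mice, where the R-SDS mice had 8.46 and 8.16. Both R-SDS values lay above both controls, although R-SDS 2 was only 0.09 above Control 1. The difference was 0.40 (SE 0.18) between the groups, 0.39 within number 1 and 0.41 within number 2, and leaving out Control 2 gave 0.24, leaving out R-SDS 1 gave 0.25. Kdr, which carries most of the growth signal of VEGF, measured 7.36 and 6.91 in the controls and 7.45 and 6.75 in R-SDS mice. Its values were high in both mice numbered 1 and low in both numbered 2, with a group difference of -0.04 (SE 0.27), 0.09 within number 1 and -0.16 within number 2.

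**Figure D1:**
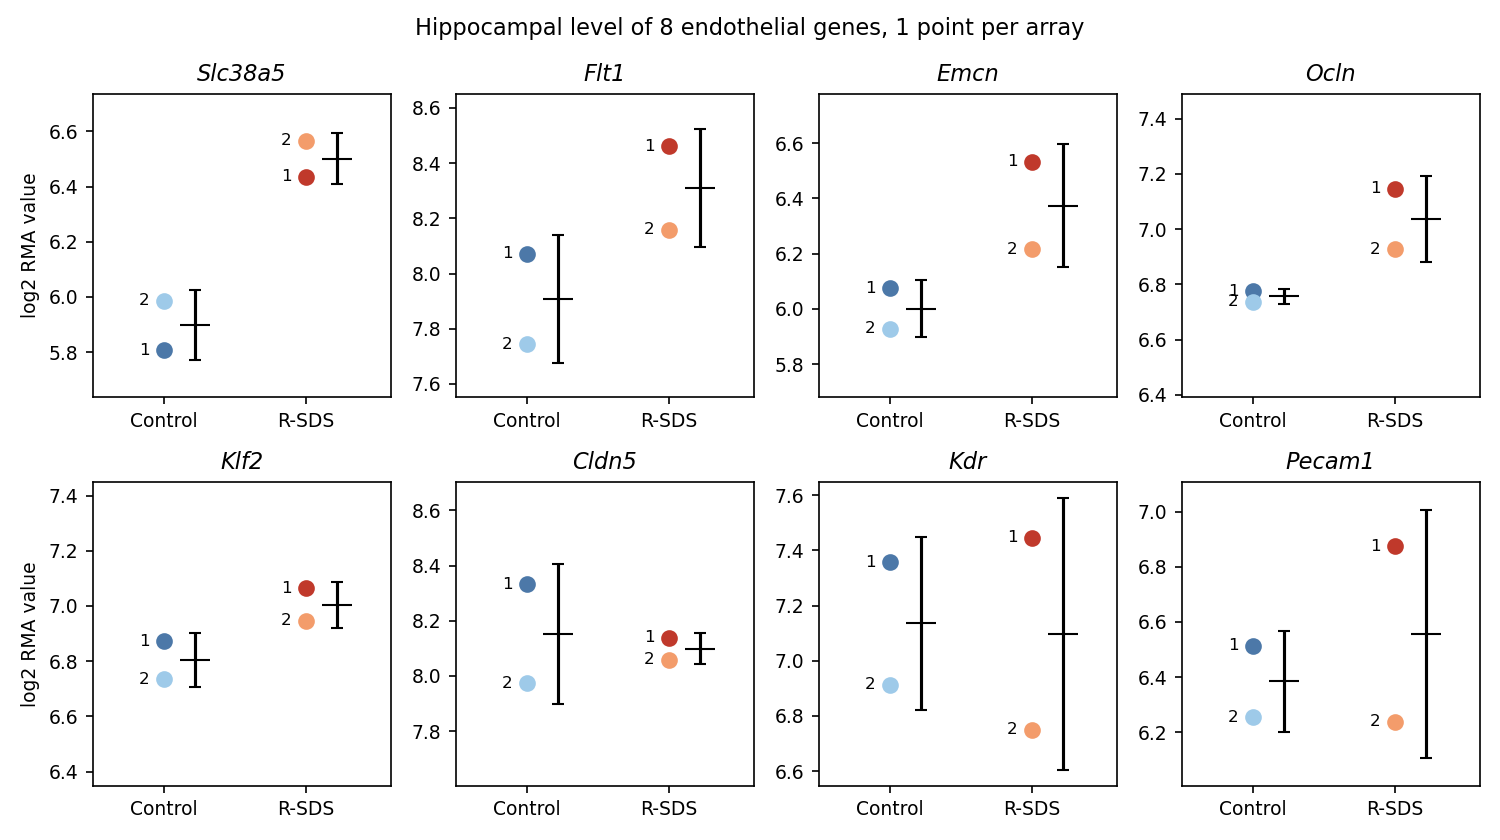
Log2 RMA values (vertical axes, drawn to equal scale in all panels) of 8 endothelial genes by group, where each point is an array labelled with its replicate number and the bar to the right gives mean and SD of the 2 arrays. The R-SDS points of Slc38a5 (6.44 and 6.57) lie clear of the controls (5.81 and 5.99), those of Flt1, Emcn, Ocln and Klf2 lie above both controls by less, and those of Cldn5, Kdr and Pecam1 overlap with them.

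The groups did not overlap for 9 of the 32 genes. In 8 of them (25% of the 32) both R-SDS arrays were above both controls, where 9.41% of all tested rows were, and in 1 gene they were below, where 9.06% of all rows were. The 8 were Slc38a5, Flt1, Emcn, Ocln, Klf2, Slc2a1, Abcg2 and Slco1a4, and each differed by more than its standard error. The 1 lower gene was Foxq1, with a difference of -0.11 (SE 0.13). Group means were higher in R-SDS mice for 24 of the 32, and the median difference over the 32 was 0.14, beside 0.0072 over all rows. R-SDS exceeded Control within both numbers for 16 genes (50% of the 32, beside 27.3% of all rows), and it lay below Control within both for Foxq1 alone (1 of 32, beside 22.7% of all rows). The median difference over the 32 was 0.17 within number 1 and 0.07 within number 2, where 28 and 19 genes were higher.

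The 4 mice did not stand in the order of the groups. R-SDS 1 had the highest value of the 4 for 25 of the 32 genes, whereas 29.3% of all tested rows were highest there. Control 2 had the lowest value for 17 and R-SDS 2 for 10. Mice numbered 1 exceeded those numbered 2 within either group, in 26 of 32 genes between the controls and in 27 of 32 between the R-SDS mice, with medians of 0.16 and 0.24. The spread that enters the standard errors therefore lay along the replicate number for most of these genes. Counted from the mean of both controls, the median of the 32 stood at 0.27 in R-SDS 1, while R-SDS 2 stood at -0.02. With 3 arrays left, more rows of the whole array lay clear of the other group, and the share of all rows is given for each case. Without R-SDS 1 the median difference was -0.0175, with 8 genes above both controls (27.3% of all rows were) and 11 below (25.1% of all rows). Without R-SDS 2 it was 0.27, with 27 of the 32 genes above both controls (33.4% of all rows) and 1 below (30.7%). Without Control 1 the median was 0.20, with 19 genes above (34% of all rows) and 2 below (30.5%), and without Control 2 it was 0.04, with 10 above (28.4%) and 4 below (27.0%).

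**Figure D2:**
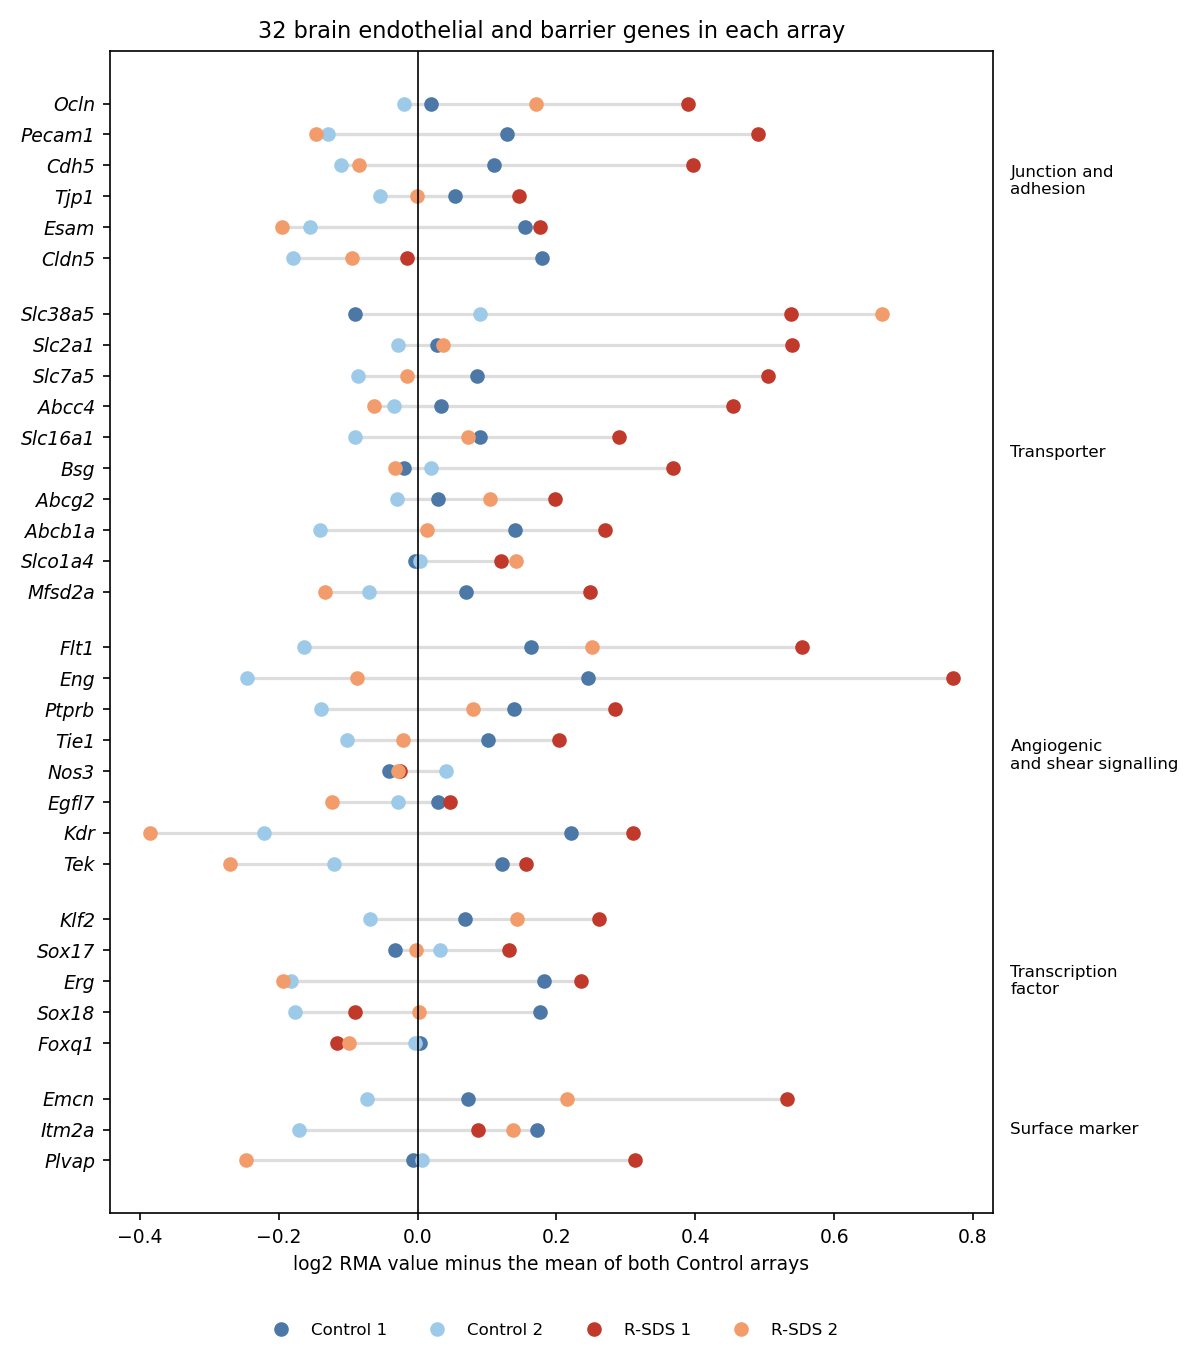
Distance of each log2 RMA value from the control mean (horizontal axis) for the 32 measured genes (rows), ordered by role and by group difference, with 1 point per array. R-SDS 1 is the rightmost point for 25 of the 32 genes, while both R-SDS points lie to the right of both controls for 8, with the widest gap for Slc38a5 (0.45).

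Junction and adhesion genes were measured for all 6 names. Ocln encodes occludin, a membrane protein of the tight junction, and measured 6.78 and 6.74 in the controls, compared with 7.15 and 6.93 in R-SDS mice. Both R-SDS values were above both controls, with a difference of 0.28 (SE 0.14), 0.37 within number 1 and 0.19 within number 2. It was 0.17 without R-SDS 1.

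Cldn5 encodes claudin-5, the most abundant claudin of the brain endothelium, and measured 8.33 and 7.97 in the controls, compared with 8.14 and 8.06 in R-SDS mice. The R-SDS values lay between the 2 controls. The difference was -0.05 (SE 0.16), with opposite signs within number 1 (-0.19) and number 2 (0.09). Tjp1, the gene of the scaffold protein ZO-1, which other cell types of the brain also use, differed by 0.07 (SE 0.14) with overlapping groups.

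Pecam1 and Cdh5, which encode the adhesion molecules PECAM-1 and VE-cadherin of endothelial cell borders, were highest in R-SDS 1. Pecam1 measured 6.51 and 6.26 in the controls and 6.88 and 6.24 in R-SDS mice, and Cdh5 measured 7.34 and 7.12 against 7.63 and 7.15. Their differences were 0.36 and 0.29 within number 1 but -0.02 and 0.03 within number 2. Esam, an adhesion molecule of endothelial tight junctions, differed by -0.0094 (SE 0.19). The median over the 6 genes was 0.11, with 0.19 within number 1 and 0.04 within number 2, and it was -0.09 without R-SDS 1.

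Transporter genes had higher group means in R-SDS mice for all 10 names, beside 52.8% of all rows, with a median difference of 0.17. In 4 of the 10 (40%, beside 9.41% of all rows) both R-SDS arrays lay above both controls. The median was 0.29 within number 1, 0.10 within number 2 and 0.02 without R-SDS 1. After Slc38a5, the next was Slc2a1, the gene of the glucose transporter GLUT1, which measured 9.87 and 9.81 in the controls and 10.38 and 9.87 in R-SDS mice. R-SDS 2 stood above Control 1 by only 0.0078. The difference was 0.29 (SE 0.19), with 0.51 within number 1 and 0.06 within number 2, and it was 0.04 without R-SDS 1.

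Slc7a5, which encodes LAT1, the carrier of large neutral amino acids and of thyroid hormone, measured 9.15 and 8.98 in the controls and 9.57 and 9.05 in R-SDS mice. Bsg encodes basigin, the partner that brings the lactate transporter to the membrane, and measured 10.46 and 10.50 against 10.85 and 10.45. The organic anion pump gene Abcc4 measured 6.73 and 6.66 against 7.15 and 6.63. In these 3 genes R-SDS 1 was the highest array and R-SDS 2 lay at or near the controls, so that the differences were 0.42, 0.39 and 0.42 within number 1 but 0.07, -0.05 and -0.03 within number 2.

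The efflux pump gene Abcg2 (0.15, SE 0.13) and Slco1a4, the gene of an organic anion carrier of brain capillaries (0.13, SE 0.13), differed by little but evenly. Slco1a4 measured 7.98 and 7.99 in the controls and 8.11 and 8.13 in R-SDS mice, a difference of 0.12 within number 1 and 0.14 within number 2. Abcg2 differed by 0.17 and 0.13 within the numbers. Abcb1a, a gene of P-glycoprotein (0.14, SE 0.17), and Slc16a1, the gene of the lactate transporter MCT1 (0.18, SE 0.15), were higher within both numbers, but their groups overlapped. Without R-SDS 1 these were 0.01 and 0.07. Mfsd2a, which encodes the transporter of lysophosphatidylcholine with omega-3 fatty acids that also restrains vesicle traffic across the barrier, differed by 0.06 (SE 0.17), with 0.18 within number 1 and -0.06 within number 2.

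Angiogenic and shear signalling genes had a median difference of 0.03 over 8 names, 4 higher and 4 lower. Flt1 was the 1 gene whose groups did not overlap (12.5%, beside 9.41% of all rows in the higher direction). Eng encodes endoglin, a co-receptor for BMP9, and measured 7.69 and 7.20 in the controls, compared with 8.22 and 7.36 in R-SDS mice. R-SDS 2 lay below Control 1. Its difference of 0.34 (SE 0.31) was 0.53 within number 1 and 0.16 within number 2, and turned to -0.09 without R-SDS 1.

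The angiopoietin receptor gene Tek measured 6.96 and 6.72 in the controls and 6.996 and 6.57 in R-SDS mice (-0.06, SE 0.19), and its partner Tie1 differed by 0.09 (SE 0.15). Ptprb, the gene of the phosphatase VE-PTP that acts on Tek, differed by 0.18 (SE 0.16), with 0.15 within number 1 and 0.22 within number 2, though R-SDS 2 lay below Control 1. Egfl7, a secreted factor of the vessel wall, and Nos3, the endothelial nitric oxide synthase gene, differed by -0.04 (SE 0.14) and -0.03 (SE 0.13). Nos3 spanned only 6.22 to 6.30 over the 4 arrays.

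Transcription factor genes differed by a median of 0.02 over 5 names. Klf2, the factor that laminar blood flow induces in endothelium, measured 6.87 and 6.73 in the controls and 7.06 and 6.95 in R-SDS mice. Both R-SDS values lay above both controls, with 0.19 within number 1 and 0.21 within number 2 (0.20 between the groups, SE 0.14), and the difference was 0.13 without Control 2. Klf2 is also expressed in leukocytes. Foxq1, a forkhead factor enriched in brain endothelium, measured 6.24 and 6.23 in the controls and 6.12 and 6.14 in R-SDS mice. These were 2 tight pairs with a small distance, -0.12 within number 1 and -0.09 within number 2. Sox17 (0.06), Sox18 (-0.04) and Erg (0.02) had standard errors between 0.13 and 0.21, above each of their differences.

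Surface marker genes were measured for 3 of 5 names. Emcn measured 6.07 and 5.93 in the controls and 6.53 and 6.22 in R-SDS mice, a difference of 0.37 (SE 0.16) with 0.46 within number 1 and 0.29 within number 2. Both R-SDS values were above both controls, and the difference was 0.21 without R-SDS 1. Itm2a, a membrane protein gene of brain endothelium, had its highest value in Control 1 (8.82) and differed by 0.11 (SE 0.16). Plvap, the gene of the diaphragm protein of fenestrated vessels such as those of the choroid plexus, measured 6.07 and 6.08 in the controls, 6.39 in R-SDS 1 and 5.83 in R-SDS 2. Thus the R-SDS mice stood on opposite sides of the controls, at 0.32 within number 1 and -0.25 within number 2.

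**Figure D3:**
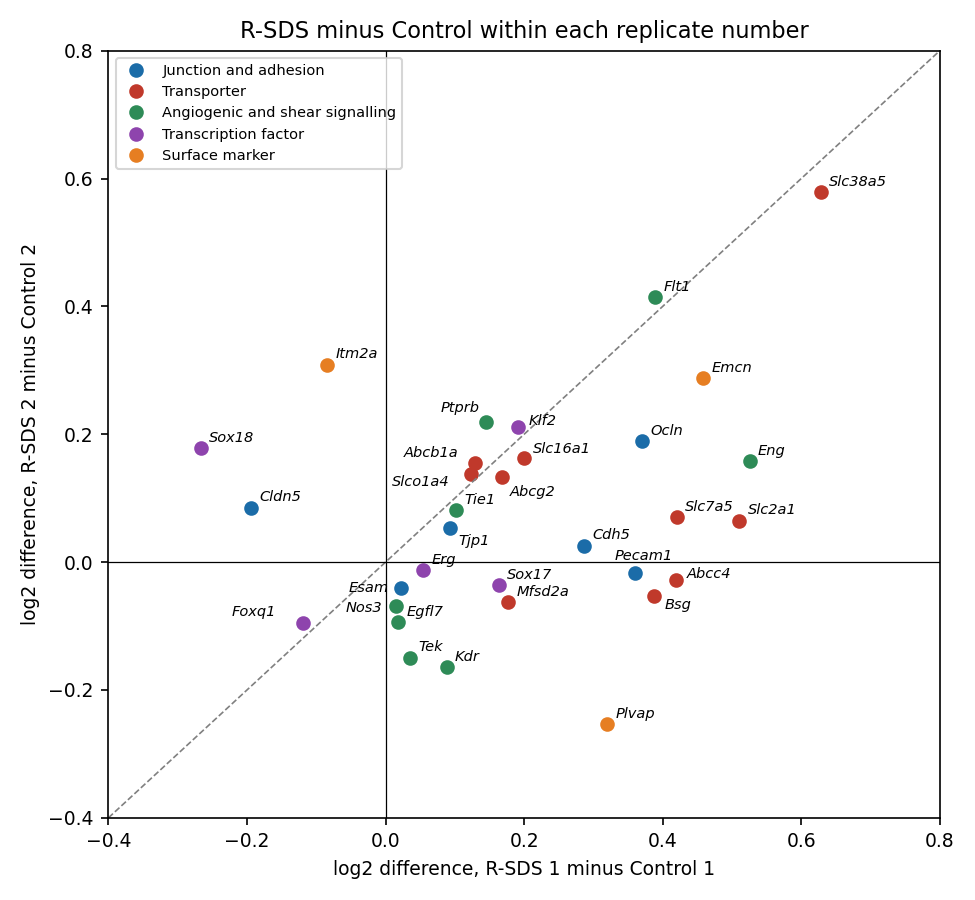
Log2 difference R-SDS 1 minus Control 1 (horizontal axis) against R-SDS 2 minus Control 2 (vertical axis) for the 32 genes, coloured by role, with the line of equal differences dashed. Slc38a5 (0.63 and 0.58), Flt1 (0.39 and 0.41) and Emcn (0.46 and 0.29) lie high on both axes, while Slc2a1, Slc7a5, Abcc4, Bsg and Pecam1 lie near 0 on the vertical axis.

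The roles were set against each other by their medians, as a description with no test. Within number 1 the order was surface markers (0.32), transporters (0.29), junction genes (0.19), angiogenic genes (0.10) and transcription factors (0.05). Within number 2 it was surface markers (0.29, 3 genes), transporters (0.10), junction genes (0.04), angiogenic genes (0.01) and transcription factors (-0.01). The surface marker median fell on Plvap within number 1 and on Emcn within number 2. Plvap itself stood at -0.25 within number 2, and Itm2a at -0.08 within number 1. Between the group means the surface marker median was 0.11, below the 0.17 of the transporters. Single genes of a role diverged by more than the roles did, as Ocln from Cldn5, Flt1 from Kdr and Slc38a5 from Mfsd2a.

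To see which genes differed otherwise than endothelium as a whole, each value was also taken relative to the mean of 7 pan-endothelial genes in the same array (Pecam1, Cdh5, Tie1, Esam, Erg, Egfl7 and Ptprb). This mean was 6.85 and 6.60 in the controls and 6.99 and 6.63 in the R-SDS mice, which is 0.14 higher within number 1 and 0.02 within number 2. On this relative scale the difference of Slc38a5 was 0.52, that of Flt1 0.32, that of Emcn 0.29 and that of Ocln 0.20, and in these 4 both R-SDS values stayed above both controls. Slc2a1 (0.21) and Slc7a5 (0.16) were apart as well, with 0.37 and 0.28 within number 1 and 0.04 and 0.05 within number 2. The relative difference was 0.12 for Klf2, 0.07 for Abcg2 and 0.05 for Slco1a4, and their groups overlapped. Tek was lower on this scale in both R-SDS mice (-0.14), with -0.11 within number 1 and -0.17 within number 2, as was Esam (-0.09), which is itself part of the mean. Cdh5 (0.07) and Ptprb (0.10), which are part of the mean too, did not overlap either, in the higher direction. In all, 8 of the 32 lay above both controls on this scale, beside 2.86% of all rows, and 2 below, beside 7.49%, and 7 of the 32 are part of the mean itself. The mean was higher in the mice numbered 1 of either group, as most of the 32 were. Subtracting it can therefore narrow the spread of the 32 and widen that of other rows. For this reason the shares do not compare on equal terms, and no conclusion is drawn from them. A ratio within an array shows unequal change and does not show which gene stayed level.

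Further genes of the barrier and of vessel growth were taken from lists. Of 19 measured junction and scaffold genes outside the 34, 0 passed the adjusted p in limma (0 at an unadjusted p under 0.05), 2 had both R-SDS arrays above both controls (10.5%, near the 9.41% of all rows) and 1 below (5.26%, beside 9.06%). They were Lsr, the gene of angulin-1 at tricellular junctions (0.27, SE 0.13), Nectin2 (0.04) and, lower, the junctional adhesion molecule gene Jam3 (-0.15, SE 0.14). Lsr measured 6.10 in each control and 6.39 and 6.36 in R-SDS mice. The median of this list was 0.04.

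Of 28 further transporters and receptors of the barrier, 2 lay above the controls in both R-SDS mice (7.14%, below the 9.41% of all rows), with a median of 0.06. The transferrin receptor gene Tfrc, which serves iron uptake at the barrier, measured 8.59 and 8.73 in the controls and 8.86 and 8.90 in R-SDS mice (0.22, SE 0.13). The pump gene Abcc1 differed by 0.15 (SE 0.14). By limma, 0 of the 28 passed the adjusted p and 0 an unadjusted p under 0.05.

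Of 36 further angiogenic ligands, receptors and modulators, 4 lay above and 4 below without overlap (11.1% each, near the 9.41% and 9.06% of all rows). Their median was 0.08, again with 0 called and 0 at an unadjusted p under 0.05 in limma. The largest of the 8 were Robo4, a receptor that stabilises endothelium (0.27, SE 0.17), the lymphatic growth factor gene Vegfc (0.23, SE 0.13), the Notch ligand gene Dll4 (0.23, SE 0.14) and, lower, the BMP9 gene Gdf2 (-0.19, SE 0.13). Of 22 genes of the Wnt signal that induces the barrier, 4 were above (18.2%, beside 9.41% of all rows) and 2 below (9.09%, beside 9.06%) without overlap. Their median was 0.08, with 0 called and 0 at an unadjusted p under 0.05 in limma. The largest were Tcf7l1 (0.24), the co-receptor gene Lrp5 (0.23), the ligand gene Ndp (-0.16) and the Wnt7 co-receptor gene Adgra2 (-0.15). Of 15 genes related to Klf2 or to the eNOS, prostacyclin and endothelin routes, 3 were above (20%, beside 9.41% of all rows) and 0 below (median 0.02, 0 called). The prostacyclin synthase gene Ptgis led them (0.29, SE 0.15). The others were the genes Ddah2 (0.16) and Ddah1 (0.14) of enzymes that break down an inhibitor of nitric oxide synthase.

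Slc38a5 is known from veins of the brain, and markers of the vessel segments were therefore compared. Of 12 measured venous markers, 10 had higher means in R-SDS mice and 7 lay above both controls without overlap (58.3% of the list, beside 9.41% of all rows), with a median of 0.27. Of 14 arterial markers 4 did (28.6%, median 0.14), and of 11 capillary markers 3 did (27.3%, median 0.06). In limma 0 of these genes passed the adjusted p, and 3 venous, 0 arterial and 0 capillary markers had an unadjusted p under 0.05, beside 1.01% of all rows. The 3 were Slc38a5, Vwf and Lcn2. Slc38a5 had prompted the comparison and the study had followed up Lcn2 for its level on these arrays. Vwf was picked in neither way, but all the lists were chosen with earlier results of these data known. The place of Vwf in the list and the counts of the list are therefore no independent evidence. Venous markers had medians of 0.42 within number 1 and 0.11 within number 2, arterial markers of 0.17 and 0.09, and capillary markers of 0.12 and 0.03. The lists also differed in median level, at 6.19 for venous, 6.34 for arterial and 8.22 for capillary markers. What cells other than endothelium added to these levels was not tested, and the difference between the segments was not tested either.

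Vwf, the gene of von Willebrand factor in the larger vessels, measured 6.33 and 6.31 in the controls and 7.19 and 6.79 in R-SDS mice (0.67, SE 0.17). Ephb4, the receptor that marks veins, measured 6.17 and 5.83 against 6.44 and 6.26 (0.35, SE 0.17). Lrg1, a secreted glycoprotein of venules, measured 5.45 and 5.51 against 6.56 and 5.67, a difference of 0.64 (SE 0.29) that was 0.19 without R-SDS 1. The scavenging chemokine receptor gene Ackr1 (0.18, SE 0.13) and the venous fate factor gene Nr2f2 (0.09, SE 0.13) were higher by less.

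Lcn2, which inflamed endothelium and other cells can express, completed the 7 with a difference of 2.57 (SE 0.40), 3.23 within number 1 and 1.91 within number 2. The study followed up Lcn2 for its level on these arrays, so that its place in the list is no independent evidence. The adhesion molecule genes Vcam1 (0.39, SE 0.25) and Icam1 (0.10, SE 0.19) overlapped between the groups, and Car8 (-0.06) and Aplnr (-0.04) had lower means. By RT-qPCR the study reported significantly higher Lcn2, Icam1 and Vcam1 mRNA in susceptible R-SDS mice than in controls. Without Lcn2, Icam1 and Vcam1, the venous median was 0.18 over 9 genes, of which 6 lay above both controls without overlap. Without Slc38a5 too it was 0.16 over 8 genes, of which 5 did, beside 9.41% of all rows.
Among the arterial markers, the 4 were Vegfc, the gap junction gene Gja4 (0.15), the Notch ligand gene Jag1 (0.15) and the kinase gene Bmx (0.12), and among the capillary markers they were Tfrc, Slco1a4 and Pglyrp1 (0.05).
Lyve1 (0.13) was the 1 gene without overlap among 8 genes listed for fenestrated vessels (12.5%, near the 9.41% of all rows), whose median was 0.06. It is also in the list of microglia and macrophage markers, so it is not particular to such vessels.

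**Figure D4:**
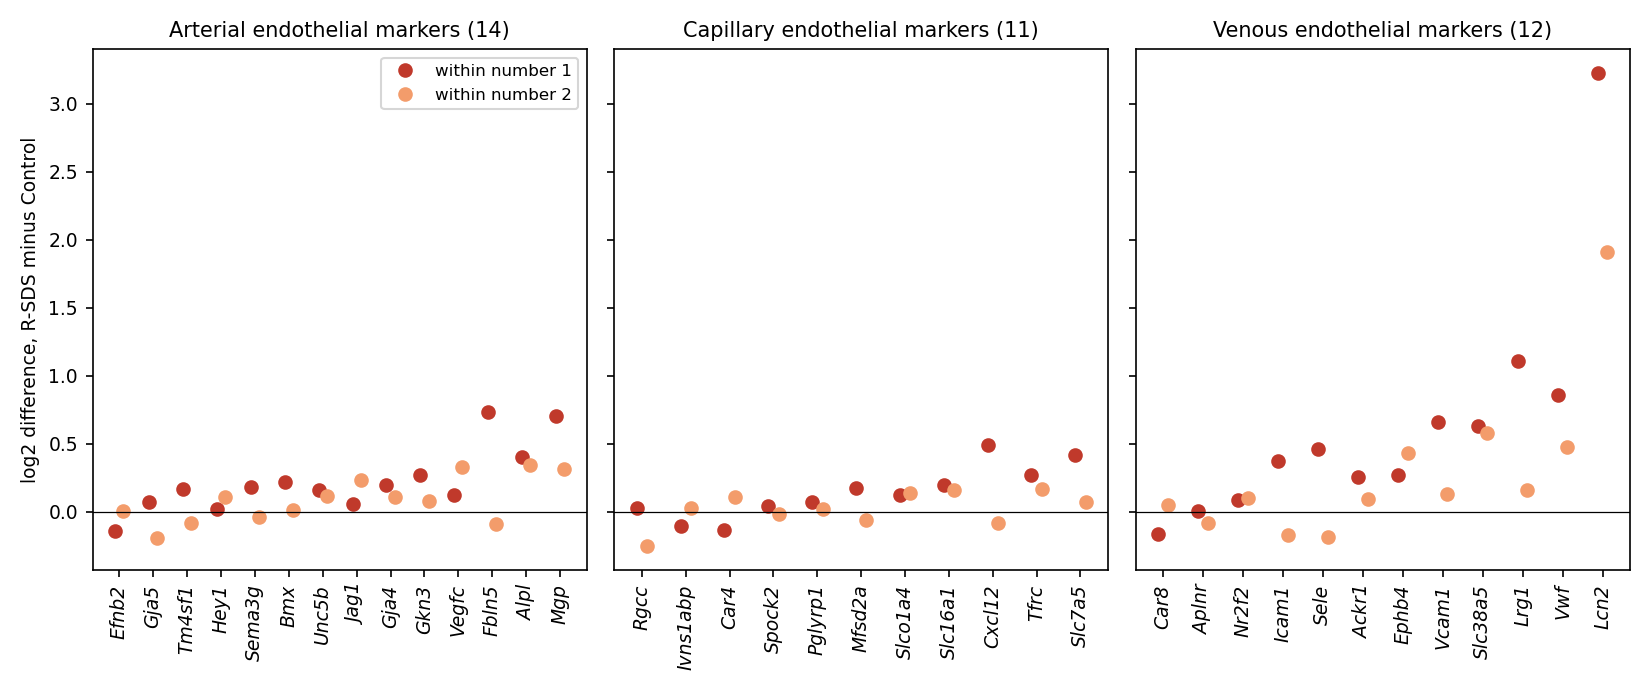
Log2 difference R-SDS minus Control (vertical axis) within number 1 and within number 2 for arterial, capillary and venous endothelial markers (horizontal axis, ordered by group difference). At the right end of the venous panel Slc38a5, Vwf and Lcn2 are high within both numbers (0.63 and 0.58, 0.86 and 0.48, 3.23 and 1.91), whereas Lrg1 is high within number 1 (1.11) and near the other genes within number 2 (0.16).

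R-SDS 1 also stood apart in markers of other tissues. The 15 measured choroid plexus markers were all highest there, and their values summed on the linear scale were 822 to 3536 in the controls, 14455 in R-SDS 1 and 1096 in R-SDS 2. Counted from the control mean, R-SDS 1 had a median of 2.32 and R-SDS 2 one of -0.19. Kcnj13, Clic6 and Folr1 differed by 3.41, 3.25 and 2.66 within number 1 and by -0.27, -0.15 and 0.08 within number 2, and Ttr, the transthyretin gene, by 1.83 and 1.36. Slc2a1, Bsg and Abcc4 are also expressed by the choroid plexus epithelium and Plvap by its vessels. All 4 had their highest value in R-SDS 1, and the part of choroid plexus in that was not tested. Within number 2 the choroid plexus sum was 822 in Control 2 and 1096 in R-SDS 2, with 7 of the 15 markers higher, a median of -0.08 and Ttr higher by 1.36, and its part in the differences of Slc38a5, Flt1 and Emcn was not tested either.

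Markers of meningeal and perivascular fibroblasts (12 measured, 10 highest in R-SDS 1) summed to 1969 to 2289 in the controls, 3213 in R-SDS 1 and 2116 in R-SDS 2, led by Igf2 with 1.27 within number 1 and 0.09 within number 2. Blood cell markers (7 measured) summed to 199 to 232, 388 and 226. Within the numbers the erythroid gene Alas2 stood at 1.75 and -0.14 and S100a8 at 1.22 and -0.09. The platelet gene Ppbp stood at 0.87 and 0.68, but Pf4, also a platelet gene, at 0.39 and -0.30. The median of the 7 was 0.65 within number 1 and -0.10 within number 2, where 6 and 2 of them were higher. Pericyte and smooth muscle markers, the cells that sheathe the same vessels, summed to 1705 to 1919 in the controls, 2244 in R-SDS 1 and 1912 in R-SDS 2. Of these 15 markers, 6 did not overlap in the higher direction (40%, beside 9.41% of all rows), and the median of the 15 was 0.24 within number 1 and 0.12 within number 2. The channel subunit gene Abcc9 differed by 0.39 and 0.32 and Vtn, the vitronectin gene, by 0.39 and 0.23. Tagln had opposite signs, with 0.28 within number 1 and -0.39 within number 2. Of the 15, 11 were higher within both numbers, and 4 had lower group means in R-SDS mice. Neuronal markers had medians of 0.04 and 0.03, astrocyte markers 0.10 and 0.06, microglial markers 0.06 and 0.09 and ependymal markers 0.23 and -0.11 within the numbers. The neuronal list summed to 30696 to 32395 in the controls, 32854 in R-SDS 1 and 30916 in R-SDS 2. How much of the endothelial differences went with these cell types was not tested.

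**Figure D5:**
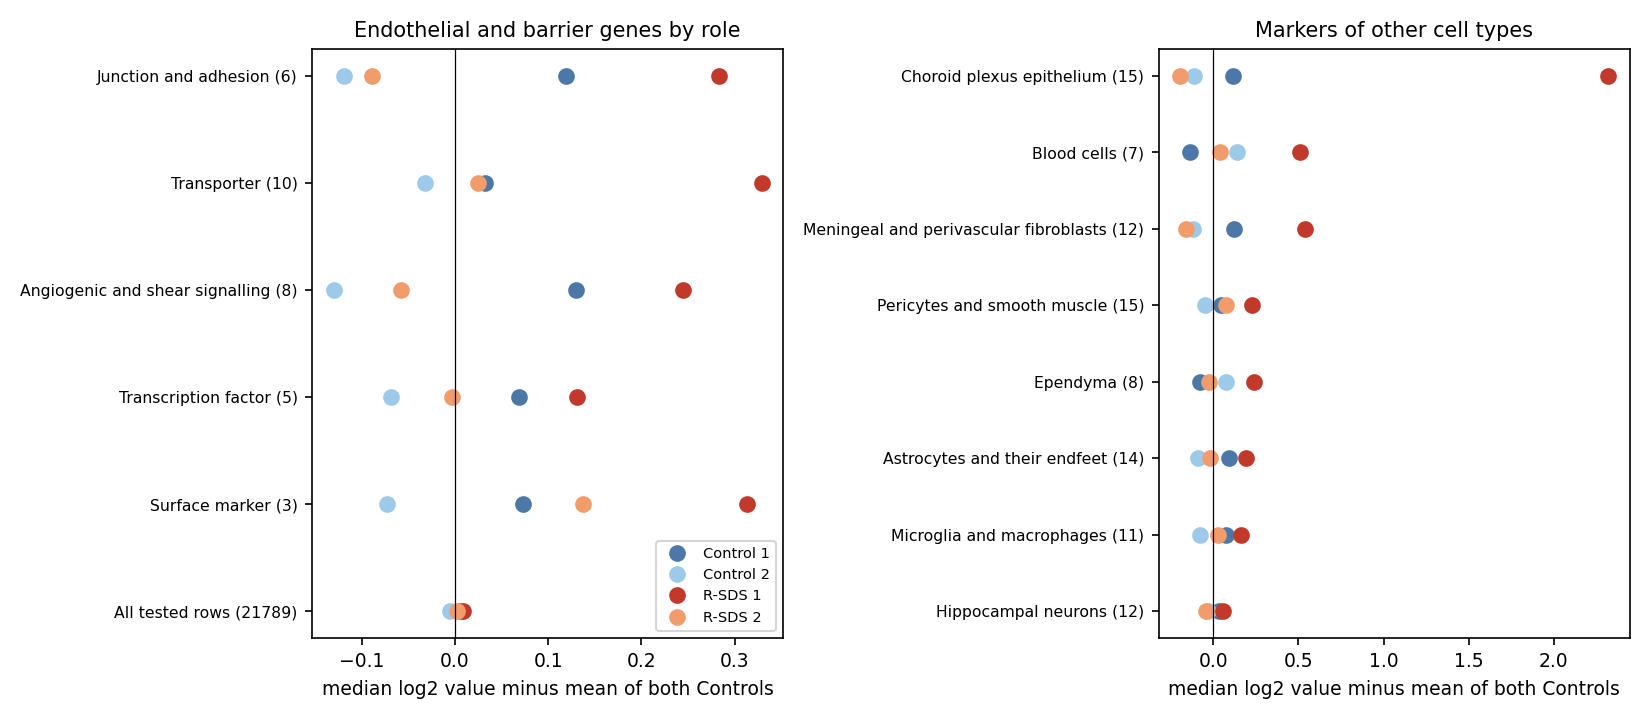
Median log2 value minus the mean of both controls (horizontal axes, which differ in range) in each array for the endothelial and barrier genes by role and all tested rows (left) and for markers of other cell types (right), with the number of measured genes or rows in brackets. R-SDS 1 is the highest array for each of the 5 roles, between 0.13 and 0.33, and its choroid plexus median stands at 2.32, while R-SDS 2 stays between -0.19 and 0.14 on both sides.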

How the data were processed

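Hippocampal RNA of 2 control and 2 R-SDS mice was hybridised to Affymetrix whole-transcript mouse arrays, 1 per mouse. The deposited values are log2 intensities made by the authors, who ran RMA in Expression Console. A genome build and detection calls are not given in the sources used here, the sources name different labelling kits, and precision is limited by the number of arrays. The columns did not share 1 distribution: interquartile ranges over 35556 rows were 3.34 and 3.37 for number 1 (Control, R-SDS) and 3.06 and 3.11 for number 2.

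Groups and replicate numbers came from the sample titles. The methods state that 2 mice were analysed after R-SDS, and the labels describe each sample as from a mouse. Rows with exactly 1 gene symbol (21789) were tested; 1621 rows had several and 12146 were not listed. Symbols were checked by Entrez identifier (99.6% matched, 0 changed). All rows were fitted with limma 3.58.1 in R 4.3.3 (2 residual and 4.07 prior degrees of freedom), two-sided, with Benjamini-Hochberg adjustment over all rows and a threshold of 0.05. The fit was tested on simulated data. Lists are described by counts and medians and were not tested.

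The genes, lists and the rule for naming were chosen with earlier results of these data known. Named are all listed genes, per vessel list up to 4 genes without overlap, per cell type list up to 3, Lcn2 and Ttr. The venous markers Icam1, Vcam1, Ackr1, Nr2f2, Ephb4, Car8 and Aplnr and the blood cell marker Pf4 were named after their values were seen. The alternatives were a further quantile normalisation, the mean of all rows of a gene, a filter on dim rows, the replicate number as a block, an intensity trend with a robust prior, the methods' t-test and leaving out each array. Plots were drawn with matplotlib 3.10.9.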

Additional observations from a re-analysis of the deposited data

How the results depend on the processing

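Neither the further quantile normalisation, the filter on dim rows, the mean over all rows of a gene, the intensity trend nor the methods' t-test called any of the 32 genes at the adjusted p, and leaving out an array did not either. Each of the 32 had 1 row, so that the mean over rows gave the same values. After the quantile normalisation 11 genes in place of 8 lay above both controls without overlap (10.8% of all rows) and 2 in place of 1 below (11.7%), and the difference of Plvap turned to -0.00079. With the replicate number as a block, 0 genes were called and 5 of the 32 had an unadjusted p under 0.05 in limma (4.81% of all rows, beside 1.01% without it). Across all rows the deviations of same-numbered arrays correlated at 0.52. With 2 pairs and no statement in the labels, the numbers are not known to pair the mice, and 1 residual degree of freedom remains under the block.

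Leaving out each array in turn gave 1 to 6 genes past the thresholds of the study (0.799% to 3.39% of all rows, with 6 genes and 3.39% without R-SDS 2), 8 to 27 above (27.3% to 34% of all rows) and 1 to 11 below both controls without overlap (25.1% to 30.7%). Median differences ranged from -0.018 to 0.27 for all 32 genes, from -0.089 to 0.28 for junction genes, from -0.058 to 0.24 for angiogenic genes, from -0.11 to 0.13 for transcription factors and from 0.039 to 0.31 for surface markers. The sign held for 12 of the 32 genes, namely Slc38a5, Flt1, Emcn, Ocln, Klf2, Slc2a1, Abcg2, Slco1a4, Abcb1a, Slc16a1, Ptprb and Foxq1, and turned for 20. The genes named in the report whose sign turned had these lowest and highest differences: Cldn5 (-0.23 to 0.12), Tjp1 (-0.0008025 to 0.15), Pecam1 (-0.15 to 0.49), Cdh5 (-0.084 to 0.40), Esam (-0.20 to 0.18), Bsg (-0.033 to 0.37), Slc7a5 (-0.015 to 0.51), Mfsd2a (-0.13 to 0.25), Abcc4 (-0.063 to 0.45), Kdr (-0.39 to 0.31), Tek (-0.27 to 0.16), Tie1 (-0.0202 to 0.20), Eng (-0.088 to 0.77), Egfl7 (-0.12 to 0.047), Nos3 (-0.067 to 0.014), Sox17 (-0.0028 to 0.13), Sox18 (-0.22 to 0.13), Erg (-0.19 to 0.24), Itm2a (-0.059 to 0.28), Plvap (-0.25 to 0.31), Kcnj13 (-1.03 to 4.17), Clic6 (-0.44 to 3.54), Folr1 (-0.073 to 2.81), Igf2 (-0.17 to 1.53), Alas2 (-0.0022 to 1.61), Ttr (-0.61 to 3.80), Icam1 (-0.14 to 0.34), Car8 (-0.14 to 0.026), Aplnr (-0.30 to 0.23). The cell type markers Tagln and Pf4 are not covered by these ranges. Low signals have no detection call, which limits what a small difference can show.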
